A study of Mus musculus with 15 samples.

Results

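The genes described here carry the calcium signal of lymphocytes from the cell surface to the nucleus: the transcription factors Nfatc1, Nfatc2 and Nfatc3, the calcineurin catalytic subunits Ppp3ca, Ppp3cb and Ppp3cc, the calcineurin regulator Rcan1, the calcium channel Orai1, and the calcium sensors Stim1 and Stim2. They were taken as all probe sets of the deposited table whose annotation gives exactly 1 of these 10 symbols. That rule found 31 of 45101 probe sets, 34945 of which carry 1 gene symbol. A probe set was tested where its highest group mean reached 5 on the log2 scale, which 22 of the 31 did, with at least 1 for each of the 10 genes. The remaining 9 are described by their levels alone.

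Spleen lymphocytes of B6x129 mice were profiled on Affymetrix mouse arrays, in 5 groups of 3 arrays. Quiescent B cells (0 h) were set against B cells given lipopolysaccharide at 25 ug/ml for 4 h (LPS, a bacterial cell wall component that activates B cells). Resting T cells (0 h) were set against T cells given concanavalin A at 7.5 ug/ml for either 4 h or 14 h (ConA, a plant lectin that activates T cells). All 5 groups share the strain, the organ and the labelling of 100 ng of total RNA. No group was cultured for 4 h or 14 h without a stimulus, so stimulus and time in culture cannot be told apart. The series asked how the transcription factor c-Myc relates to gene expression in activated lymphocytes, as its title states, and it holds no group in which calcineurin or calcium entry was blocked. Whether the 3 replicates of a group were separate animals or cultures is not given in the labels, so p-values measure the spread between these arrays, which may be technical.

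When an antigen receptor is engaged, calcium leaves the endoplasmic reticulum, the sensors Stim1 and Stim2 detect the emptied store, and they open Orai1 channels in the plasma membrane. The rising calcium activates calcineurin, a phosphatase made of a catalytic A subunit (Ppp3ca, Ppp3cb or Ppp3cc) and a regulatory B subunit, which strips phosphates from NFAT proteins so that they enter the nucleus. NFAT proteins then bind DNA, often beside AP-1, at cytokine and activation genes, and Rcan1, itself a known NFAT target, binds and restrains calcineurin. ConA crosslinks surface glycoproteins that include the T cell receptor, whereas LPS signals through Toll-like receptor 4.

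The core of NFAT binding sites is GGAAA, and TGANTCA is the AP-1 motif. Both were searched on both strands in the 250 bases before the annotated starts of the member genes, taken from RefSeq promoters of build GRCm38.p6. In all, 10 such windows were read, for 7 of the 10 genes. Nfatc1 was left out before the search, and Ppp3ca and Ppp3cc had no matched window. At least 1 GGAAA was present in 55.6% of all 32851 windows of that length, at least 3 in 6.39%, and at least 1 TGANTCA in 6.75%. Rcan1 is shown because its gene has 2 annotated starts that differ in these letters, Orai1 because it rose under both stimuli, and Ppp3cb because its brightest probe set had the smallest range of group means among the brightest of the 10 genes. Capitals mark GGAAA or its reverse complement TTTCC, each line runs 5′ to 3′ on the gene's strand, and no TGANTCA match overlapped a capital stretch.
Rcan1 upstream start, chr16:92466170-92466419, minus strand: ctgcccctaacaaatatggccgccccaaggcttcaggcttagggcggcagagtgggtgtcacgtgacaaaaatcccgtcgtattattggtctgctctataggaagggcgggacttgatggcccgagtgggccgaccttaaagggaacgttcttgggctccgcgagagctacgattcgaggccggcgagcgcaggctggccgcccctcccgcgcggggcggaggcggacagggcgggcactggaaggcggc
Rcan1 downstream start, chr16:92400079-92400328, minus strand: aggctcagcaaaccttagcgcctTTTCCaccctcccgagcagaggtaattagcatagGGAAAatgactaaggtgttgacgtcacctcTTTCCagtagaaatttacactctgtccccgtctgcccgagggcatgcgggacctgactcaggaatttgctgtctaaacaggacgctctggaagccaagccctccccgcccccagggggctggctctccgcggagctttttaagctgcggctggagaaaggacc
Orai1, chr5:123014824-123015073, plus strand: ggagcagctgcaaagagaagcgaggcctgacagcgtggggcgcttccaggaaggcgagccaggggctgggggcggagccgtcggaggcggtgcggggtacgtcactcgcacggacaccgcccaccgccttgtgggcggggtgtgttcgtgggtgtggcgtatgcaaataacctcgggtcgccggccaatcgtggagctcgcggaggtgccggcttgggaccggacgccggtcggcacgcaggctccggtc
Ppp3cb, chr14:20546574-20546823, minus strand: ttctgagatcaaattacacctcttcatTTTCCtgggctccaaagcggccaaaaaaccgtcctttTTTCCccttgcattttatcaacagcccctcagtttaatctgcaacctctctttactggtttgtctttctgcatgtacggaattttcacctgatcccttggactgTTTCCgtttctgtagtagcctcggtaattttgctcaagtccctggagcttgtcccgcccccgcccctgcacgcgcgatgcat
The upstream Rcan1 window and the Orai1 window held 0 GGAAA, while the downstream Rcan1 window held 3 with 1 TGANTCA and the Ppp3cb window held 3 with 0 TGANTCA. Of the windows not printed, those of Nfatc2 held 1 and 3 GGAAA, those of Nfatc3 held 1 and 0, and those of Stim1 and Stim2 held 0. These windows held 0 TGANTCA. Starts that differ in GGAAA are thus not particular to Rcan1, since those of Nfatc2 and Nfatc3 differ as well. A match is a run of letters, not a bound site, and its absence says only that these letters are not in this window.

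The values are log2 signals with a floor of 2.24, which 39.1% of all values share. Arrays of 1 group correlated at 0.995 to 0.999. The difference between the 3′ and 5′ signals of the spike-in control dap was 0.21 to 0.78 on B cell arrays and 1.39 to 1.96 on most T cell arrays. It was 4.52 on T cell 0 h replicate 2 and 5.35 on ConA 4 h replicate 1, and member calls that change without these 2 arrays are given beside the results or with the limits. Of 7 T cell markers, 6 had a mean under 4 in both B cell groups (all but Cd3e), and Cd79a, Pax5 and Blnk had a mean under 4 in all T cell groups, where the other 2 matched B cell markers were at 5 or above. A drop in signal from fewer cells of a type and one from less RNA per cell cannot be told apart in these bulk samples.

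**Figure D1:**
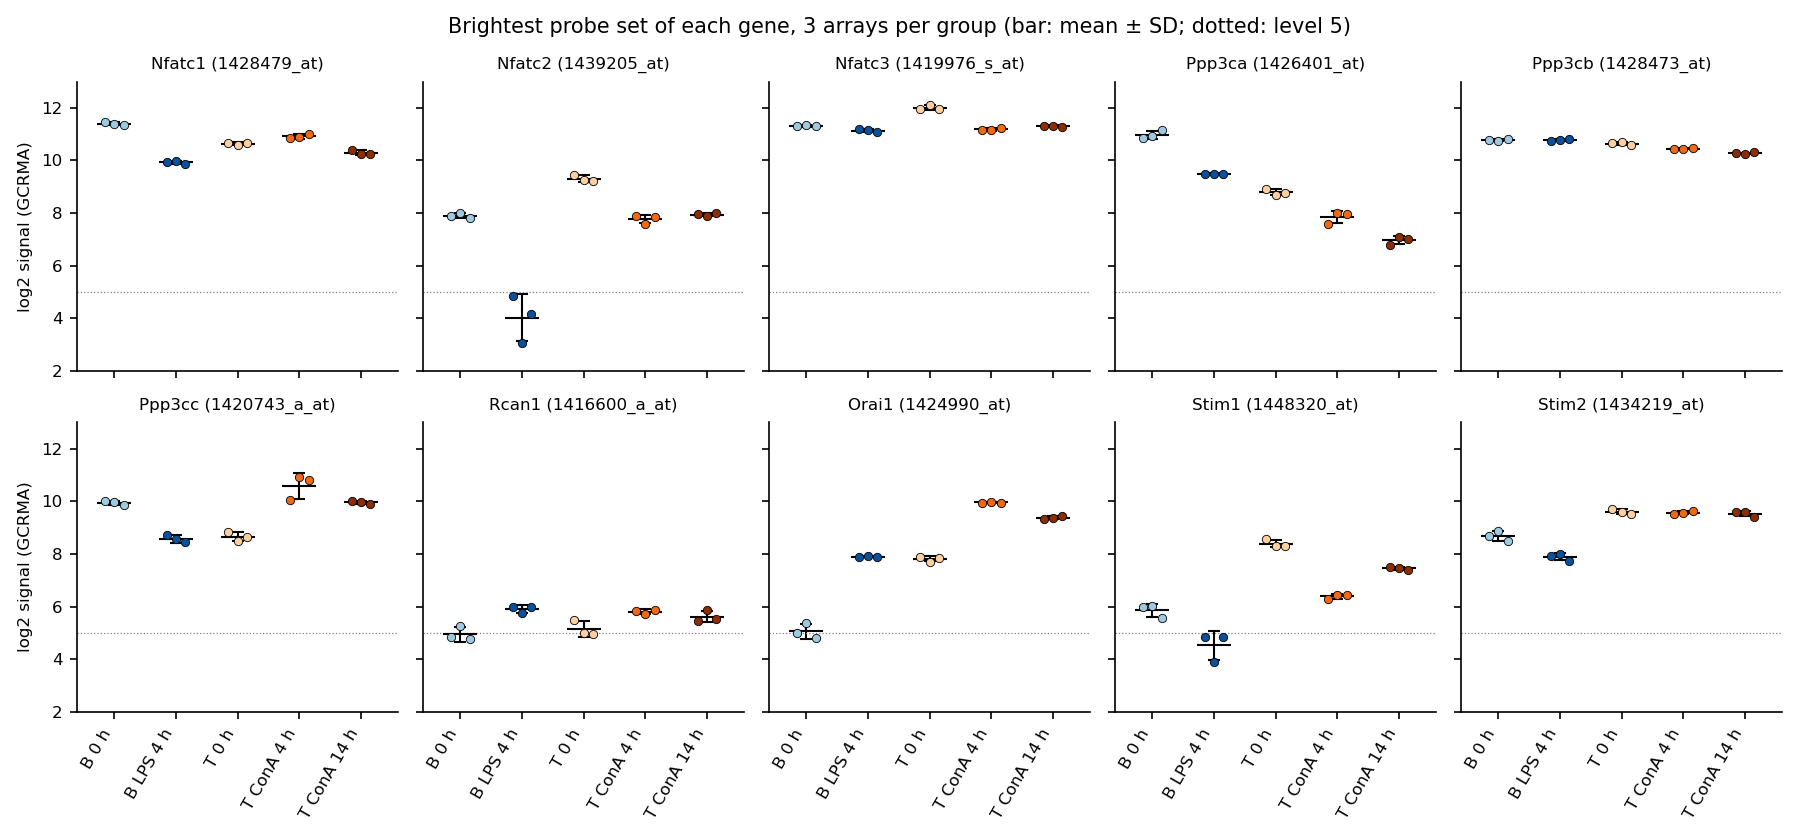
Level of the brightest probe set of each of the 10 genes (log2 GCRMA signal, y axis) in the 5 groups (x axis). Points are arrays, bars are the mean ± SD of 3 arrays, and the dotted line marks level 5. Orai1 stands at 5.06 in resting B cells and at 9.96 in T cells after 4 h of ConA, and Ppp3ca falls from 10.98 in resting B cells to 6.96 in T cells after 14 h.

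Changes were tested with limma across all 16229 probe sets with 1 symbol and a highest group mean of at least 5, and called at a Benjamini-Hochberg adjusted p under 0.05. In B cells, 19 of the 22 tested member probe sets changed with LPS, 5 upward and 14 downward (1 of the 14, Nfatc1 1447084_at, lay under level 4 in both groups), against a background of 76.4% of all tested probe sets (38.4% higher and 38% lower). The median change of the 22 was -0.88, beside 0.00 over all tested. In T cells after 4 h of ConA, 18 were called, 9 in each direction, against 61.5% of all tested (32.3% higher, 29.2% lower), with a median of 0.01 beside 0.02. After 14 h, 18 were called, 7 upward and 11 downward, against 64.7% (34.2% higher, 30.4% lower), with a median of -0.22 beside 0.03. Both ConA comparisons use the same 0 h arrays.

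Large shares of all probe sets were called in each comparison, so a call by itself sets no member apart. From 4 h to 14 h of ConA, 15 of 22 changed, 2 upward and 13 downward, against 44.7% (23.2% higher, 21.5% lower), with a median of -0.48 beside 0.01. Between resting B and T cells, 19 of 22 differed, 10 higher and 9 lower in B cells, against 75.5% (29.4% higher, 46.1% lower), with a median of 0.18 beside -0.19. The dap difference was smaller on every B cell array than on any T cell array, so cell type and labelling cannot be told apart here. That limit holds for each difference between resting B and T cells given below.

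Markers of other cells moved in the same samples. In B cells, the 4 tested monocyte and macrophage markers fell with LPS, Csf1r and Adgre1 to means under 4. The summed log2 level of the 5 listed went from 11.3 on every 0 h array to between 6.76 and 7.39. Itgam, not tested, was under 4 in both B cell groups. All 5 matched B cell markers also fell, with a median change of -1.20. Of other lists, 2 of 2 tested neutrophil, 6 of 6 erythroid, 2 of 2 plasma cell, 2 of 3 NK cell and 1 of 2 platelet markers fell with LPS. Of 3 dendritic cell markers, 2 rose and 1 fell. Of the 7 T cell markers, 4 fell and 1 rose after 4 h of ConA and 5 fell and 1 rose after 14 h, with Thy1 going from a mean of 11.95 to 8.98 at 4 h. In T cells, all 6 erythroid markers fell at both times, from a summed level of 12.3 to 12.4 at 0 h to 8.37 to 8.50 at 4 h and 7.88 to 8.04 at 14 h. The 3 tested NK cell markers fell at both times as well. The summed level of the 4 neutrophil markers was 7.89 to 8.25 at 0 h, 10.4 to 10.97 at 4 h and 5.30 to 5.64 at 14 h in T cells. The part of these cells in the member results was not tested.

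**Figure D2:**
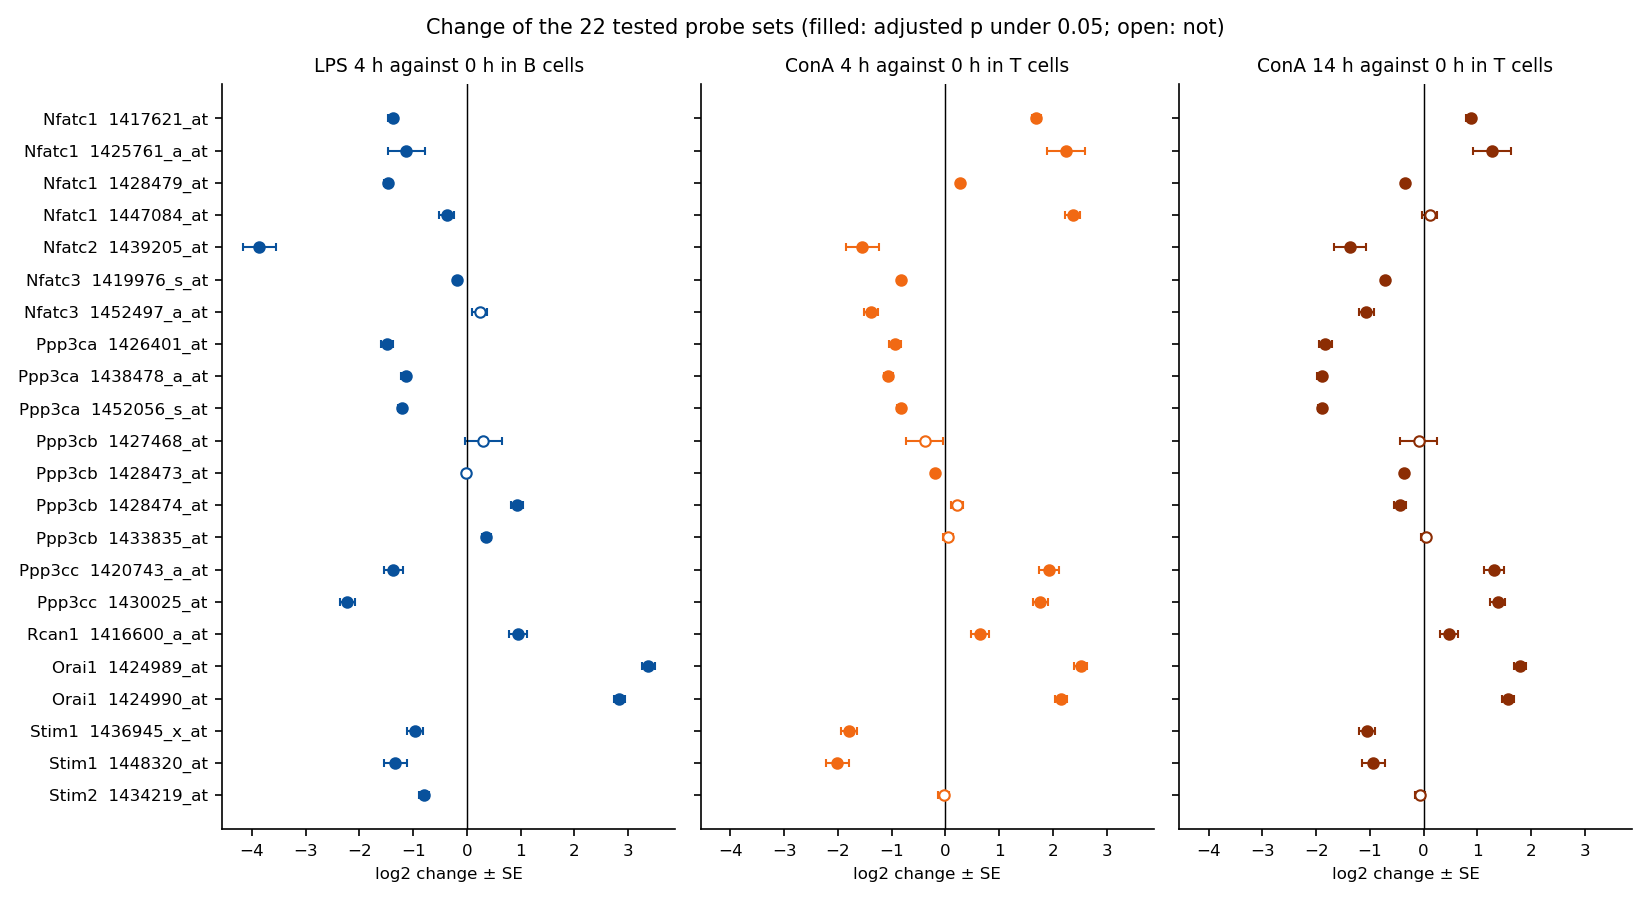
Log2 change ± SE (x axis) of the 22 tested member probe sets (y axis) for LPS at 4 h in B cells and ConA at 4 h and 14 h in T cells; filled points have an adjusted p under 0.05. Both Orai1 probe sets lie to the right of 0 in all 3 panels and all Ppp3ca probe sets to the left, while both Ppp3cc probe sets fall in B cells and rise in T cells.

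Nfatc1, the NFAT factor known to be induced through its own family in activated lymphocytes, fell with LPS in B cells on 3 tested probe sets and rose after 4 h of ConA in T cells on all 4. Among these, 1447084_at passed the level filter only through the ConA groups, so its call at 4 h could hardly be a fall. The brightest, 1428479_at, read 11.45, 11.39 and 11.34 in B cells at 0 h and 9.93, 9.98 and 9.87 after LPS. In T cells it read 10.68, 10.59 and 10.66 at 0 h, 10.84, 10.90 and 11.02 at 4 h, and 10.40, 10.25 and 10.26 at 14 h. Resting B cells were thus the highest group and LPS-treated B cells the lowest, and no neighbouring groups in the order overlapped.

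On this probe set Nfatc1 fell by 1.47 ± 0.07 (SE, n = 3 against 3) with LPS, a 2.76-fold drop (adjusted p = 3.22e-10). With ConA it rose by 0.28 ± 0.07 at 4 h (adjusted p = 0.00365) and fell by 0.34 ± 0.07 at 14 h (adjusted p = 8.12e-04). The other 3 tested probe sets for Nfatc1 gave larger rises in T cells at 4 h.

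Probe set 1417621_at read 8.10, 8.01 and 7.94 in resting T cells, 9.53, 9.84 and 9.76 at 4 h, and 8.94, 8.81 and 8.92 at 14 h. It rose by 1.70 ± 0.09, or 3.24-fold, at 4 h (adjusted p = 2.48e-09) and by 0.87 ± 0.09 at 14 h (adjusted p = 1.36e-06). With no overlap between the 3 T cell groups, its highest level was at 4 h and an intermediate one at 14 h. In B cells it went from 8.76, 8.70 and 8.71 to 7.41, 7.39 and 7.23 with LPS, a fall of 1.38 ± 0.09 (adjusted p = 5.54e-09).

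The third probe set, 1447084_at, read an identical 3.86 on all 3 resting B cell arrays and a mean of 3.48 after LPS, both under 4 and near the floor, and had a mean of 4.96 ± 0.29 (SD, n = 3) in resting T cells. It reached 7.21, 7.27 and 7.51 after 4 h of ConA and returned to 5.27, 5.03 and 4.91 at 14 h. The 4 h rise was 2.37 ± 0.13, or 5.17-fold (adjusted p = 6.77e-09), whereas the 14 h difference of 0.11 ± 0.13 did not pass (adjusted p = 0.497) and its arrays overlapped those at 0 h. Only the ConA groups had means of at least 5, so it was tested through them and its 4 h call could hardly be a fall. Its B cell difference of -0.38 ± 0.13, called with all arrays (adjusted p = 0.0216), lies near the floor and is not read as a fall. Without the 2 arrays with the large dap difference, its 14 h difference in T cells was 0.28 ± 0.11 (adjusted p = 0.0434).

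For 1425761_a_at the T cell arrays spread more, with 6.53, 5.06 and 6.17 at 0 h, 7.43, 8.48 and 8.58 at 4 h, and 7.18, 7.01 and 7.38 at 14 h. The low values of 5.06 and 7.43 came from the 2 arrays with the large dap difference. It rose by 2.24 ± 0.35 at 4 h (adjusted p = 8.80e-05) and by 1.27 ± 0.35 at 14 h (adjusted p = 0.00574), and fell by 1.13 ± 0.35 with LPS (adjusted p = 0.00942). Without those 2 arrays the rises of 1425761_a_at were 2.18 ± 0.18 at 4 h (adjusted p = 1.79e-06) and 0.84 ± 0.16 at 14 h (adjusted p = 9.41e-04).

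From 4 h to 14 h of ConA all 4 Nfatc1 probe sets fell, by 0.82, 0.97, 0.62 and 2.26 in the order 1417621_at, 1425761_a_at, 1428479_at and 1447084_at. The fall of 1425761_a_at lost its call when any 1 of 5 T cell arrays was left out (adjusted p between 0.0537 and 0.132). The probe sets disagreed in sign at 14 h against 0 h, where 2 rose, 1428479_at fell and 1447084_at was not called. Between resting cells, 1417621_at, 1425761_a_at and 1428479_at were higher in B cells, by 0.71, 1.52 and 0.75. Probe set 1447084_at was under 5 in both resting groups, so no difference between them is read from it. The files do not give the part of the transcript each probe set reads, so isoforms were not assigned. The untested 1447085_s_at had group means of 2.84 to 2.95 except after 4 h of ConA, where it read 4.54, 4.43 and 3.90.

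**Figure D3:**
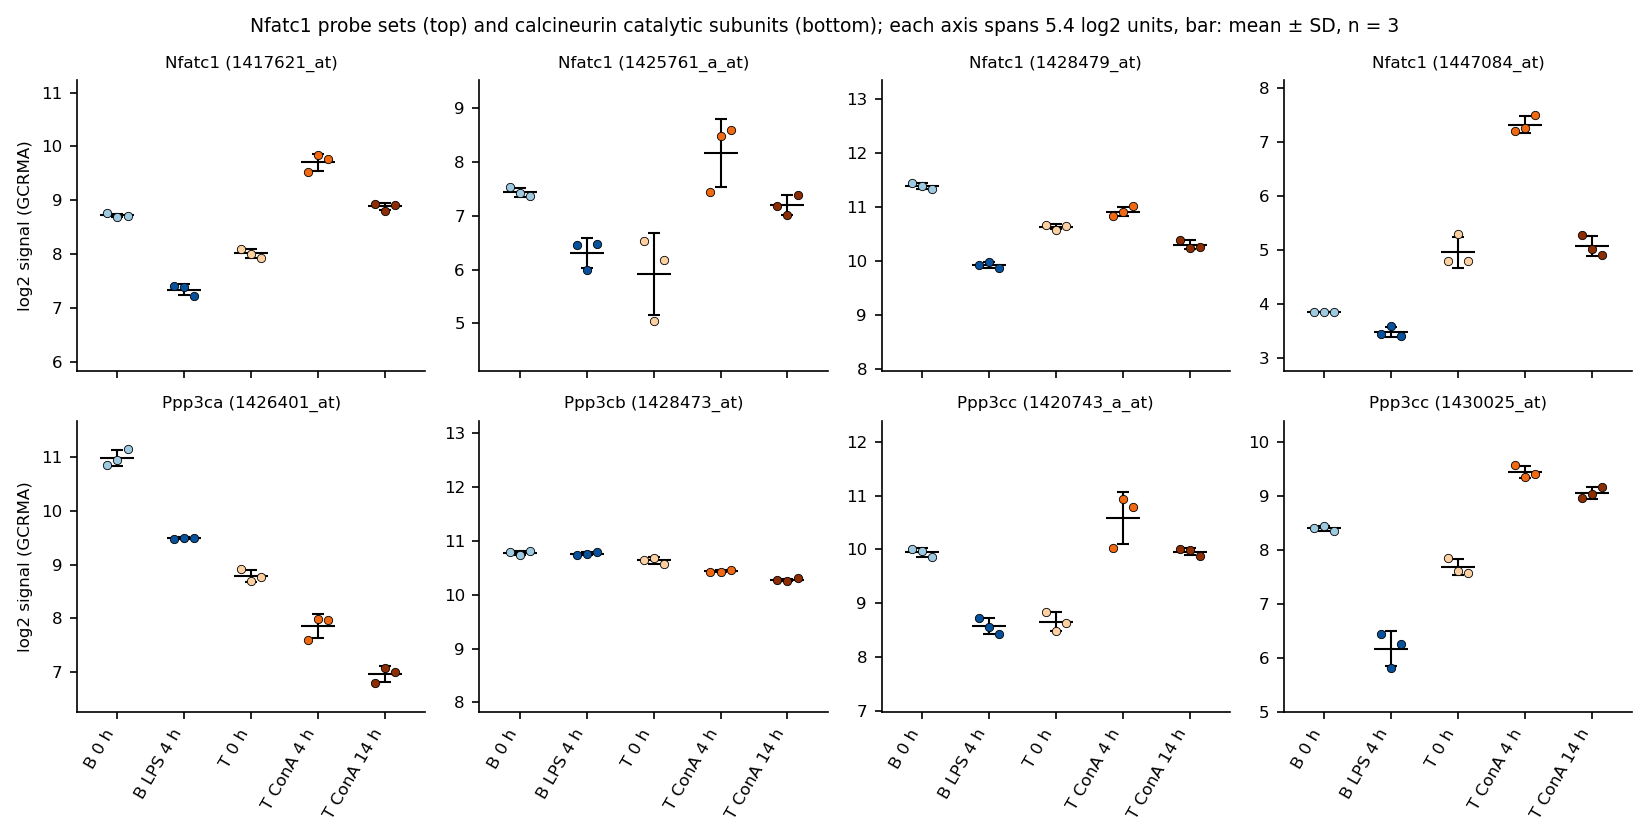
Levels (log2 GCRMA signal, y axis; every axis spans the same number of log2 units) of 4 Nfatc1 probe sets in the top row and 4 calcineurin catalytic subunit probe sets in the bottom row, by group (x axis). Points are arrays and bars the mean ± SD of 3 arrays. All 4 Nfatc1 probe sets peak among the T cell groups at 4 h, with means of 9.71, 8.16, 10.92 and 7.33, and the first 3 fall in LPS-treated B cells, where the last, 1447084_at, lies under 4 in both groups. Probe set 1447084_at passed the level filter only through the ConA groups.

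Nfatc2, the NFAT factor that is abundant in resting lymphocytes, was measured by 1 tested probe set, 1439205_at, and it fell in every stimulated group. It read 7.89, 7.99 and 7.79 in resting B cells and 4.85, 3.07 and 4.15 after LPS. The T cell arrays read 9.45, 9.26 and 9.23 at 0 h, 7.88, 7.59 and 7.83 at 4 h, and 7.96, 7.88 and 7.99 at 14 h. Resting T cells were highest and LPS-treated B cells lowest, apart from all other groups, while resting B cells overlapped both ConA groups.

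The LPS fall was 3.86 ± 0.31, or 14.6-fold (adjusted p = 6.11e-08). Because the level after LPS (mean 4.03) lies near the floor, the size of this fall depends on where that floor was set. With ConA Nfatc2 fell by 1.55 ± 0.31 at 4 h (adjusted p = 6.60e-04) and by 1.37 ± 0.31 at 14 h (adjusted p = 0.0015), and the difference between those times, 0.18 ± 0.31, did not pass (adjusted p = 0.682). Resting B cells held 2.68-fold less than resting T cells (log2 -1.42 ± 0.31, adjusted p = 8.73e-04). The other 5 Nfatc2 probe sets lay between 2.24 and 3.73 on every array and were not tested.

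Nfatc3, the third factor, fell in T cells and changed little in B cells. Its bright probe set 1419976_s_at read 11.95, 12.10 and 11.97 in resting T cells, 11.15, 11.17 and 11.25 at 4 h, and 11.32, 11.31 and 11.26 at 14 h. The falls were 0.82 ± 0.06 at 4 h (adjusted p = 1.60e-07) and 0.71 ± 0.06 at 14 h (adjusted p = 6.13e-07). The second probe set, 1452497_a_at, fell by 1.38 ± 0.13 and 1.07 ± 0.13 at the same times, from a mean of 8.65 ± 0.24 (SD, n = 3).

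In B cells 1419976_s_at went from 11.29, 11.34 and 11.31 to 11.20, 11.14 and 11.06. That fall of 0.18 ± 0.06 passed (adjusted p = 0.0234) but not without B cell 0 h replicate 2 (adjusted p = 0.0635) or LPS replicate 3 (adjusted p = 0.0913). The second Nfatc3 probe set differed by 0.23 ± 0.13 in the opposite direction and was not called (adjusted p = 0.131). Both were lower in resting B cells than in resting T cells, by log2 differences of -0.70 ± 0.06 and -0.78 ± 0.13.

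Among the calcineurin catalytic subunits, the 3 genes followed different courses. Ppp3ca, the alpha isoform, fell in every stimulated group on all 3 probe sets. Its brightest, 1426401_at, read 10.85, 10.94 and 11.14 in resting B cells and 9.48, 9.50 and 9.50 after LPS. In T cells it read 8.92, 8.69 and 8.77 at 0 h, 7.60, 7.99 and 7.98 at 4 h, and 6.80, 7.08 and 7.01 at 14 h. The 5 groups did not overlap, with resting B cells highest and 14 h T cells lowest.

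For 1426401_at, 1438478_a_at and 1452056_s_at the falls were 1.49, 1.14 and 1.22 with LPS, 0.94, 1.07 and 0.83 after 4 h of ConA, and 1.83, 1.90 and 1.89 after 14 h. All 9 passed, the weakest at an adjusted p of 1.33e-05. Ppp3ca also fell between 4 h and 14 h, by 0.89 ± 0.12, 0.83 ± 0.08 and 1.06 ± 0.07 on the 3 probe sets, so the decline at 14 h exceeded that at 4 h. In resting B cells it was higher than in resting T cells by 2.19 ± 0.12, 0.65 ± 0.08 and 2.15 ± 0.07, and the 1438478_a_at difference was the smallest of the 3.

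For Ppp3cb, the beta isoform, the group means of the brightest probe set spanned 0.51, and those of the other 3 tested spanned 0.87 to 1.59. The brightest, 1428473_at, read 10.79, 10.74 and 10.81 in resting B cells and 10.73, 10.76 and 10.80 after LPS, a difference of -0.02 ± 0.06 (adjusted p = 0.80). T cell values were 10.65, 10.69 and 10.57 at 0 h, 10.42, 10.43 and 10.46 at 4 h, and 10.27, 10.25 and 10.30 at 14 h. Those 3 groups did not overlap, and the falls were 0.20 ± 0.06 at 4 h (adjusted p = 0.00824) and 0.37 ± 0.06 at 14 h (adjusted p = 8.62e-05).

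The remaining Ppp3cb probe sets gave mixed values. With LPS, 1428474_at rose by 0.93 ± 0.11 (adjusted p = 5.66e-06) from 7.36, 6.98 and 6.98 to 8.12, 7.93 and 8.07, and 1433835_at rose by 0.36 ± 0.09 (adjusted p = 0.00192). In T cells 1433835_at differed by 0.05 ± 0.09 and 0.04 ± 0.09 at 4 h and 14 h and did not pass, and 1428474_at fell by 0.44 ± 0.11 at 14 h (adjusted p = 0.0046). The probe set 1427468_at read 9.004, 8.15 and 8.96 in resting T cells and 7.26, 8.84 and 8.87 at 4 h, the low values being those of the same 2 arrays.

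With all arrays 1427468_at was called by limma in 0 of the 6 comparisons, and its lowest unadjusted p was 0.0633, for resting B against T cells. Without those 2 arrays it rose by 0.31 with LPS (adjusted p = 4.02e-04) and fell by 0.37 after 14 h of ConA (adjusted p = 3.49e-04). The untested 1446149_at read 3.70, 3.63 and 4.02 after LPS and at most 3.06 on every other array.

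Ppp3cc, the gamma isoform, fell in B cells and rose in T cells. Probe set 1420743_a_at read 10.01, 9.97 and 9.85 in resting B cells and 8.73, 8.56 and 8.44 after LPS. In T cells it read 8.84, 8.49 and 8.64 at 0 h, 10.03, 10.94 and 10.79 at 4 h, and 10.01, 9.99 and 9.88 at 14 h. Resting B cells overlapped 14 h T cells, and LPS-treated B cells overlapped resting T cells.

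The LPS falls of Ppp3cc were 1.37 ± 0.18 (adjusted p = 1.37e-05) and, on 1430025_at, 2.23 ± 0.14, or 4.69-fold (adjusted p = 4.43e-09). After 4 h of ConA it rose by 1.93 ± 0.18, or 3.81-fold (adjusted p = 1.04e-06), and by 1.77 ± 0.14 (adjusted p = 1.34e-07). After 14 h the rises were 1.30 ± 0.18 and 1.38 ± 0.14. The declines from 4 h to 14 h, 0.63 ± 0.18 and 0.39 ± 0.14, passed with all arrays and were lost in some settings: for 1430025_at the adjusted p was 0.106 without ConA 4 h replicate 1, 0.108 without 14 h replicate 1 and 0.0790 without 14 h replicate 2, and 0.117 without both arrays with the large dap difference. For 1420743_a_at it was 0.0663 without ConA 4 h replicate 2 and 0.0598 without replicate 3.

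Rcan1, the feedback inhibitor of calcineurin, was low in all groups and rose in each stimulated group. Probe set 1416600_a_at read 4.83, 5.27 and 4.75 in resting B cells and 5.98, 5.75 and 5.98 after LPS. T cells gave 5.50, 4.99 and 4.97 at 0 h, 5.82, 5.70 and 5.87 at 4 h, and 5.46, 5.86 and 5.54 at 14 h. The B cell groups did not overlap, nor did T cells at 0 h and 4 h, whereas 0 h and 14 h T cells did.

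The rises were 0.96 ± 0.17, or 1.94-fold, with LPS (adjusted p = 1.46e-04), 0.65 ± 0.17 after 4 h of ConA (adjusted p = 0.00431) and 0.47 ± 0.17 after 14 h (adjusted p = 0.0255). The 14 h call was lost without T cell 0 h replicate 2 (0.39, adjusted p = 0.0932), 0 h replicate 3 (0.38, adjusted p = 0.0985) or 14 h replicate 2 (0.35, adjusted p = 0.113), and without the 2 arrays with the large dap difference (0.39, adjusted p = 0.102). Resting B and T cells differed by -0.20 ± 0.17 and this was not called (adjusted p = 0.281).

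The second Rcan1 probe set, 1416601_a_at, did not reach level 5 in any group and was not tested. It read 2.88, 2.79 and 2.67 in resting B cells and 4.58, 4.95 and 5.04 after LPS, with no overlap. In T cells it stayed between 2.52 and 2.60 on all 9 arrays, near the floor, at 0 h, 4 h and 14 h alike. The files do not say which of the 2 Rcan1 starts printed above either probe set reads.

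Orai1, the pore subunit of the store-operated calcium channel, had the largest rises of the 22 tested probe sets in B cells, and it rose in T cells too. Probe set 1424990_at read 5.01, 5.36 and 4.81 in resting B cells and 7.88, 7.93 and 7.89 after LPS. In T cells it read 7.87, 7.71 and 7.86 at 0 h, 9.94, 9.99 and 9.95 at 4 h, and 9.34, 9.37 and 9.44 at 14 h. None of the 5 groups overlapped its neighbour, and LPS-treated B cells sat just above resting T cells.

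On this probe set Orai1 rose by 2.84 ± 0.11, or 7.14-fold, with LPS (adjusted p = 3.84e-11). The rises with ConA were 2.15 ± 0.11, or 4.43-fold, at 4 h (adjusted p = 2.43e-09) and 1.57 ± 0.11, or 2.97-fold, at 14 h (adjusted p = 5.12e-08). The level fell by 0.58 ± 0.11 from 4 h to 14 h (adjusted p = 8.78e-04).

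Probe set 1424989_at followed the same course, from 2.52, 2.62 and 2.59 in resting B cells to 6.11, 5.83 and 5.92 after LPS. Because its resting B cell level lies close to the floor of 2.24, the size of its 3.38 ± 0.12 rise depends on where that floor was set. Its T cell values were 6.36, 6.42 and 6.08 at 0 h, 9.03, 8.73 and 8.64 at 4 h, and 7.96, 8.15 and 8.14 at 14 h. Both Orai1 probe sets were lower in resting B cells than in resting T cells, by -3.71 ± 0.12 and -2.75 ± 0.11 on the log2 scale, the latter 6.74-fold (adjusted p = 5.68e-11).

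Stim1, the main store sensor, fell in every stimulated group. Probe set 1448320_at read 5.99, 6.02 and 5.58 in resting B cells and 4.85, 3.90 and 4.85 after LPS. The T cell series was 8.55, 8.31 and 8.30 at 0 h, 6.27, 6.42 and 6.45 at 4 h, and 7.51, 7.46 and 7.39 at 14 h. No neighbouring groups overlapped, and the 14 h T cells lay between the 4 h and 0 h T cells.

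The falls on 1448320_at were 1.33 ± 0.21 with LPS (adjusted p = 6.06e-05), 2.01 ± 0.21, or 4.02-fold, after 4 h of ConA (adjusted p = 2.53e-06) and 0.93 ± 0.21 after 14 h (adjusted p = 0.00161). On 1436945_x_at they were 0.96 ± 0.15, 1.79 ± 0.15 and 1.05 ± 0.15. Between 4 h and 14 h Stim1 rose again, by 1.07 ± 0.21 and 0.74 ± 0.15, and these were the 2 upward calls among the members in that comparison. Resting B cells had less Stim1 than resting T cells by -2.52 ± 0.21 and -1.60 ± 0.15 on the log2 scale.

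Stim2, the sensor that responds to smaller losses of store calcium, fell in B cells and showed no called change in T cells. Its probe set 1434219_at read 8.69, 8.86 and 8.51 in resting B cells and 7.92, 7.996 and 7.74 after LPS, a fall of 0.80 ± 0.10 (adjusted p = 6.67e-06). In T cells it read 9.69, 9.59 and 9.51 at 0 h, 9.52, 9.57 and 9.61 at 4 h, and 9.59, 9.60 and 9.41 at 14 h. The 3 T cell groups overlapped, with differences from 0 h of -0.03 ± 0.10 (adjusted p = 0.828) and -0.07 ± 0.10 (adjusted p = 0.587). Resting B cells were lower than resting T cells by -0.91 ± 0.10 on the log2 scale, and the second Stim2 probe set, 1441024_at, stood at 2.29 in all groups.

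The difference between the B cell and the T cell response at 4 h was tested directly as an interaction, in which stimulus and cell type cannot be told apart. It was called for 17 of 22 member probe sets, 7 higher and 10 lower in the B cell response, against 62% of all tested (31.3% higher, 30.7% lower), with a median of 0.05 beside 0.02. The differences were -3.996 ± 0.19 for Ppp3cc on 1430025_at (adjusted p = 1.31e-09) and -3.08 ± 0.12 for Nfatc1 on 1417621_at (adjusted p = 1.84e-10). Both genes fell under LPS and rose under ConA. For Orai1, which rose under both, the B cell response was larger by 0.69 ± 0.15 on 1424990_at (adjusted p = 0.0017). For Rcan1 the interaction was 0.31 ± 0.24 (adjusted p = 0.276), so a difference between the responses was not shown.

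Under other scalings of the arrays, no called member change altered its sign. The median over all tested probe sets moved by over 0.1 in the resting comparison of B with T cells, from -0.19 to -0.06 with array medians set equal and to -0.04 with cyclic loess. With array medians set equal it also went from 0.00 to -0.09 for LPS and from 0.03 to -0.05 for 14 h of ConA. Under both scalings the Ppp3cb probe sets 1427468_at and 1428474_at passed as higher in resting B cells, which gave 12 higher and 9 lower members. The interaction gave 6 higher members with array medians set equal and 8 with cyclic loess.

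The rest of the pathway was read from 4 lists, with the brightest probe set of each gene. The shares of all tested probe sets to set beside their counts are 38.4% higher and 38% lower with LPS, 32.3% and 29.2% after 4 h of ConA, and 34.2% and 30.4% after 14 h. Of NFAT relatives and the kinases that return NFAT to the cytoplasm, 7 of 8 listed genes were tested. With LPS 2 rose and 3 fell, and with ConA 0 rose and 6 fell at both times in limma, with 0 rises also at an unadjusted p under 0.05. Gsk3b, a kinase that rephosphorylates NFAT, fell by 1.17 ± 0.09 with LPS and by 0.95 ± 0.09 and 0.98 ± 0.09 after 4 h and 14 h of ConA. Dyrk2, another NFAT kinase, rose by 0.58 ± 0.06 in B cells and fell by 0.75 ± 0.06 and 0.99 ± 0.06 in T cells. Nfat5, the calcineurin-independent relative, fell by 0.61 ± 0.07 with LPS.

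Of 11 calcineurin partners, 7 were matched to a probe set and 5 were tested. With LPS 2 rose and 2 fell, after 4 h of ConA 3 rose and 2 fell, and after 14 h 1 rose and 2 fell. Ppp3r1, the regulatory B subunit, fell by 1.57 ± 0.13 in B cells, from a mean of 10.11 to 8.54, and rose by 0.63 ± 0.13 in T cells at 4 h, with 0.09 ± 0.13 at 14 h not called. Fkbp1a, the FK506 binding protein through which that drug blocks calcineurin, rose by 1.78 ± 0.07, 0.55 ± 0.07 and 0.85 ± 0.07 in the 3 comparisons. Akap5, a scaffold that anchors calcineurin, rose by 1.33 ± 0.17 with LPS and fell by 0.54 ± 0.17 and 1.61 ± 0.17 with ConA. Rcan3, a relative of Rcan1, had a mean of 7.49 in resting T cells, 8.26 after 4 h of ConA, 7.62 after 14 h and 3.42 in resting B cells.

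Most tested genes of store calcium handling were called lower. Of 18 genes, 16 were matched and 14 tested: 1 rose and 12 fell with LPS (median -1.48), 2 rose and 9 fell after 4 h of ConA (median -0.71), and 1 rose and 9 fell after 14 h (median -0.91). Orai2, a channel relative of Orai1, fell by 3.18 ± 0.11 with LPS and by 3.01 ± 0.11 and 3.04 ± 0.11 with ConA, opposite in direction to Orai1 in every stimulated group. Its mean after LPS, 3.80, lies near the floor. The inositol trisphosphate receptors that release store calcium fell as well, Itpr3 by 3.86 ± 0.10, 2.01 ± 0.10 and 1.89 ± 0.10, and Itpr2 by 3.50 ± 0.25, 1.54 ± 0.25 and 1.35 ± 0.25.

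The pumps that refill the store moved in opposite directions. Atp2a3 fell by 3.56 ± 0.10, 2.64 ± 0.10 and 2.29 ± 0.10, whereas Atp2a2, named after its values were seen as the upward call in this list in B cells, rose by 1.04 ± 0.06, 0.58 ± 0.06 and 0.53 ± 0.06. Itpkb, a kinase that consumes inositol trisphosphate, fell by 0.50 ± 0.08 at 4 h and 2.63 ± 0.08 at 14 h in T cells. The potassium channel Kcnn4, which sustains calcium entry, fell by 1.53 ± 0.09 at 4 h and its difference of 0.01 ± 0.09 at 14 h was not called. Saraf, which slows Stim1 and Orai1 activity, had a mean of 13.26 in resting T cells and fell by 1.13 ± 0.11 and 1.14 ± 0.11.

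Of 12 NFAT target genes, 9 were tested, and in T cells 9 rose and 0 fell at 4 h (median 3.001) and again at 14 h (median 2.36), against 32.3% and 34.2% of all tested called higher. This list was chosen with earlier results of these data known, so the counts describe its genes and do not test the list. Il2 and Il4 were under 4 in resting T cells and passed the level filter through the ConA groups, so they could be called in T cells only as rising. The other 7 had a mean above 5 at 0 h. Il2, the T cell growth factor, had a mean of 3.29 ± 0.16 (SD, n = 3) at 0 h, 8.56 ± 0.18 at 4 h and 9.44 ± 0.10 at 14 h. Il4 rose by 4.65 ± 0.10 at 4 h and by 2.61 ± 0.10 at 14 h, and Ifng by 2.59 ± 0.22 and 3.97 ± 0.22. The transcription factor Egr2 rose by 4.20 ± 0.14 and 2.36 ± 0.14.

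In B cells 3 of these 9 were called higher and 1 lower with LPS. Tnf rose by 1.00 ± 0.12 and Egr2 by 0.49 ± 0.14, the call for Ctla4 lay between means of 3.20 and 3.72, near the floor, and Egr3 fell by 2.34 ± 0.09 from 11.24 ± 0.08 (SD, n = 3). The interaction was lower in the B cell response for all 9 tested, from -0.86 ± 0.15 for Fasl to -5.37 ± 0.19 for Il2. Il2, Il4, Ifng, Fasl, Pdcd1 and Ctla4 had means under 4, near the floor, in both B cell groups, for example Il4 at 2.35 and 2.52. Because these genes rose in T cells, their interaction could hardly take the other sign and says little about the B cell response. Only Tnf, Egr2 and Egr3 had means above 5 in both B cell groups.

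**Figure D4:**
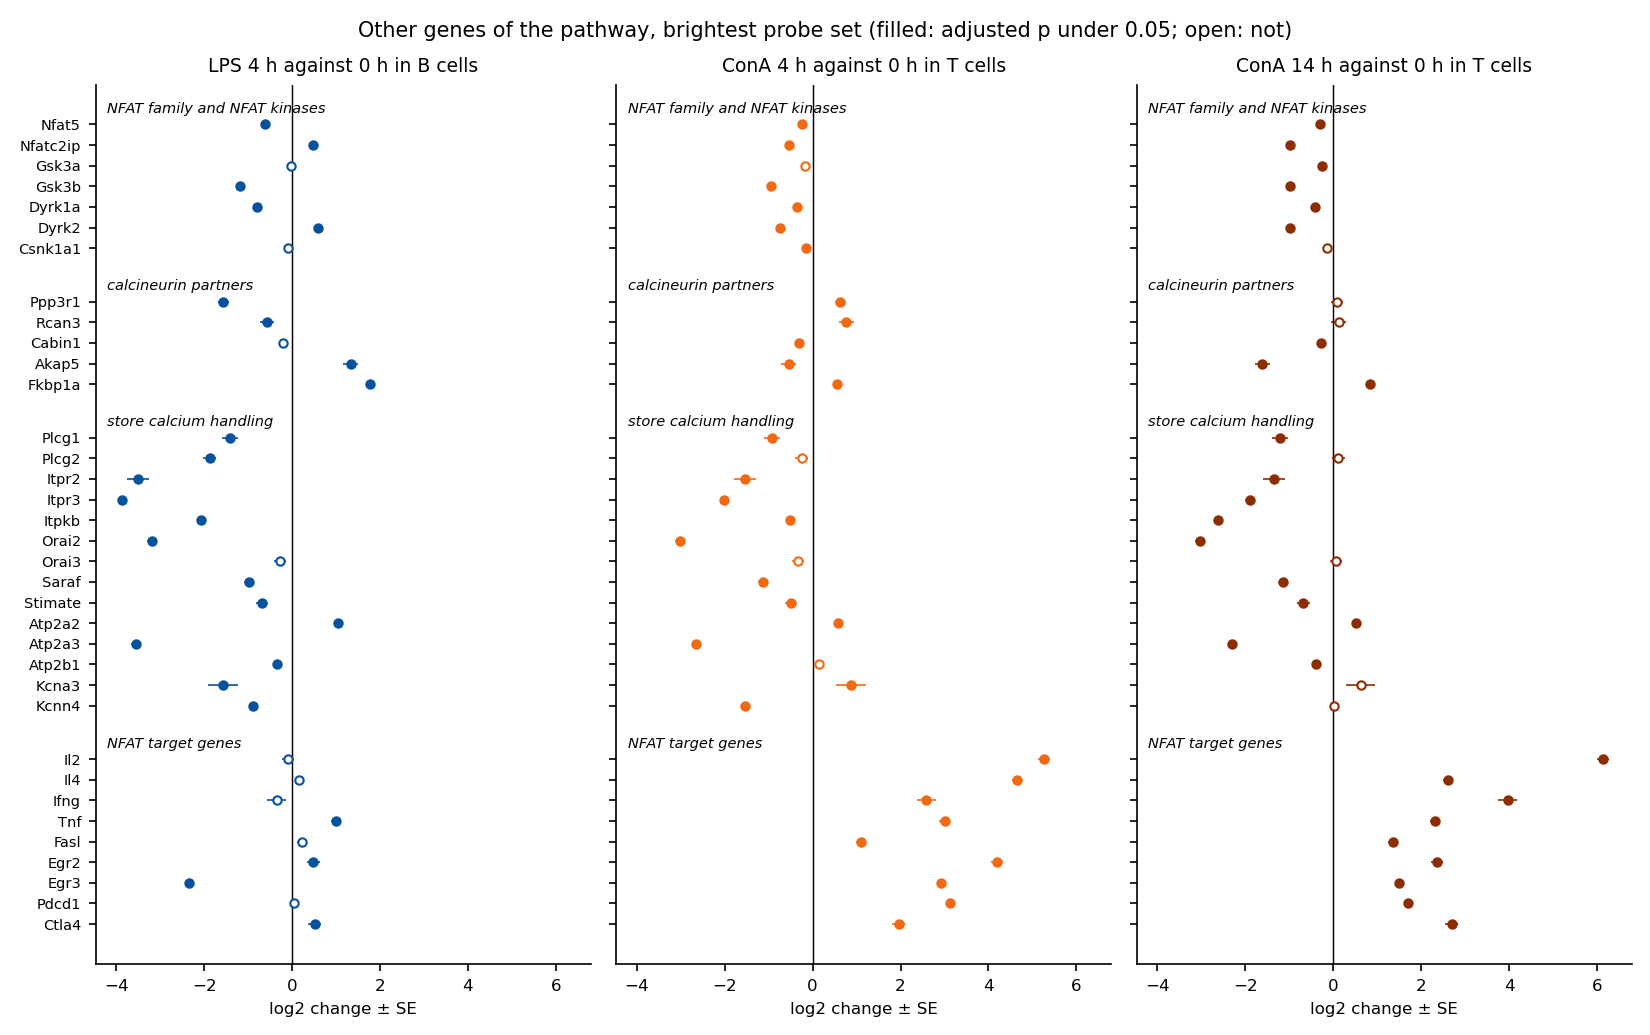
Log2 change ± SE (x axis) of the tested genes of the 4 pathway lists (y axis, brightest probe set per gene) for LPS at 4 h in B cells and ConA at 4 h and 14 h in T cells; filled points have an adjusted p under 0.05. Store calcium genes lie mostly to the left of 0 in all 3 panels, and the NFAT target genes lie to the right in both T cell panels, up to 6.15 for Il2 at 14 h.

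The genes most alike in pattern were described by Pearson's r over the 15 arrays among 6685 genes whose group means spanned at least 1 log2 unit; the arrays fall into 5 groups, so these values mostly compare group means. For Orai1 (1424990_at) they were Flvcr1 (r = 0.993), Pmepa1 (0.990) and Rgs1 (0.989). For Nfatc1 (1428479_at) they were Stk17b (0.987), AU020206 (0.961) and Chkb (0.954), and for Rcan1 (1416600_a_at) Aar2 (0.953), Snhg1 (0.927) and Shq1 (0.925).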

How the data were processed

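The authors deposited log2 signals made with GCRMA, which corrects background and normalizes arrays together, according to the submitters' processing notes. Equal RNA amounts were labelled and arrays normalized to each other, so RNA per cell is not visible. Names came from a gene table of the platform (64 controls, 932 with several genes and 9160 with none were left out), and 34741 symbols were checked by Entrez number against RefSeq, with 0 changed. A model of group means over 15 arrays used limma 3.58.1 under R 4.3.3 (10 residual and 2.63 prior degrees of freedom), with Benjamini-Hochberg adjustment over 16229 probe sets. Errors of changes are SE and errors of levels SD. With 3 arrays a group, their number limits the precision. All member probe sets were named. From each list the rule took up to 3 called genes with the largest change in each comparison, or the 2 brightest where fewer than 2 were called. Some genes that the rule took are not described, among them Plcg1, Plcg2, Dyrk1a and Nfatc2ip. The list genes named are therefore a selection. Members and lists were chosen with earlier results of these data known. Alternatives were other filters, scalings, fits, a replicate block, 1 probe set per gene, and leaving out arrays. The fit was tested on simulated data. Nfatc1's promoter was left out before the motif search and was not read. Ppp3ca and Ppp3cc were not matched in the promoter table. Genes of the lists not tested were Nfatc4, Ppp3r2, Rcan2, Atp2b4, Trpm4, Il3, Csf2 and Cd40lg (low) and, among those with no probe set of that symbol alone, Ppia, Itpr1 and Cracr2a.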

Additional observations from a re-analysis of the deposited data

Results flagged for a closer look

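The B cell response to LPS and the T cell response to ConA at 4 h differed, by the interaction term in limma, for 17 of the 22 tested member probe sets. Values are the B cell log2 change minus the T cell log2 change, with SE. Nfatc1, which fell in B cells and rose in T cells, gave -3.08 ± 0.12 on 1417621_at, -3.37 ± 0.49 on 1425761_a_at, -1.74 ± 0.10 on 1428479_at and -2.75 ± 0.19 on 1447084_at, whose B cell means were both under 4 and which was tested only through the ConA groups. Ppp3cc, with the same pair of directions, gave -3.30 ± 0.26 on 1420743_a_at and -3.996 ± 0.19 on 1430025_at. Nfatc2 fell in both cell types, and its value was -2.32 ± 0.43. Its mean after LPS, 4.03, lies near the floor, so the size of this difference depends on where that floor was set.

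Nfatc3, which fell in T cells, gave 0.64 ± 0.09 on 1419976_s_at and 1.62 ± 0.19 on 1452497_a_at. Ppp3ca, which fell in both, gave -0.55 ± 0.17 on 1426401_at and -0.39 ± 0.10 on 1452056_s_at, while 1438478_a_at was not called. For Ppp3cb, 1427468_at and 1428473_at were not called with all arrays, 1428474_at gave 0.71 ± 0.16 and 1433835_at gave 0.31 ± 0.12. The last has an adjusted p of 0.0429 and lost its call in most settings that left out an array, such as 0.23 without B cell 0 h replicate 3 (adjusted p = 0.103). It was also lost with the replicate block (adjusted p = 0.0657), with array medians set equal (0.0745), with only the groups compared (0.0561), with no filter on low values, and without both arrays with the large dap difference (0.0753).

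Orai1, which rose in both, gave 0.86 ± 0.17 on 1424989_at and 0.69 ± 0.15 on 1424990_at. The size of the 1424989_at difference depends on where the floor was set, because its mean in resting B cells was 2.58. Stim1, which fell in both, gave 0.83 ± 0.21 on 1436945_x_at, while its brightest probe set, 1448320_at, was not called with all arrays. In limma 1448320_at was called with cyclic loess (0.70, adjusted p = 0.0458). It was also called without LPS replicate 2 (0.99, adjusted p = 3.66e-04), the array on which it read 3.90. Stim2, which fell in B cells and was not called in T cells, gave -0.77 ± 0.14. Stimulus and cell type cannot be told apart in these differences.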

How the results depend on the processing

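Of 3220 alternative values for the 132 member changes, 3143 kept their direction and side of the threshold, 53 lost the call, 23 gained it and 1 reversed. The reversal was Ppp3cb 1427468_at at 14 h against 4 h of ConA, 0.29 with all arrays and -0.25 (adjusted p = 0.00856) without the 2 arrays with the large dap difference. With 1 probe set per gene, 9 of 10 genes were called for LPS, 9 for ConA at 4 h, 9 at 14 h, 6 for 14 h against 4 h, 9 for B against T cells and 7 for the interaction. These are lower than the counts of probe sets because 10 genes were tested instead of 22 probe sets. Leaving out 1 array at a time gave 17 to 19, 18 to 18, 17 to 18, 11 to 16, 18 to 20 and 16 to 17 called in the same order.

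Replicate numbers gave no sign of pairing: 30 correlations of deviations between same-numbered arrays ran from -0.64 to 0.37, 3 exceeded 0.1, and 2 of 15 arrays correlated best with their own number. Both extremes lay between T cells at 0 h and at 4 h, the groups that hold the 2 arrays with the large dap difference. Whether the replicates were paired cannot be decided from these values. With the replicate number as a block, 19, 18, 18, 14, 18 and 16 members were called. Ppp3cb 1428473_at was the least stable call between resting cells (0.14, adjusted p = 0.0604 with the block) and between 4 h and 14 h (adjusted p = 0.0552 with the block). For the pathway lists, alternatives with other scalings, the block and those 2 arrays left out were chosen after seeing the data. No called gene of those lists changed sign and no total of called genes moved by over 1.5 times. By direction, NFAT relatives and kinases higher in resting B cells went from 1 to 2 under both scalings, calcineurin partners lower after 4 h and after 14 h of ConA each from 2 to 1 without those 2 arrays, and store calcium genes higher after 4 h of ConA from 2 to 1 with the block. Without those 2 arrays Nfatc3 1452497_a_at was called for LPS (0.23, adjusted p = 0.0415) and for 14 h against 4 h (0.42, adjusted p = 0.00776), and Ppp3cb 1427468_at for B against T cells (0.42, adjusted p = 1.01e-04) and for the interaction (0.43, adjusted p = 0.00152). Low signal limits Nfatc2 and Stim2, whose other probe sets lie near the floor.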
